A study of Schmidtea mediterranea with 58 samples.

Results

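H3K4me3 regions that flank gene starts without covering them were examined in *Schmidtea mediterranea*, a freshwater planarian flatworm that regenerates from dividing stem cells. They were taken from 7 tables in which chromatin immunoprecipitation sequencing (ChIP-seq) libraries had been compared. A region was kept when the gap between its nearer edge and the closest annotated gene start was over 200 and up to 1000 bases. This distance carries no sign, so whether a member lies upstream of its gene or inside it is not known. The rule was met by 2559 of 16158 listed regions. Members of different tables that overlap were joined, which gave 1979 separate loci.

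The H3K4me3 mark is trimethylation of a lysine on the tail of histone H3. In animals it is densest around the starts of transcribed genes and thins out along the first part of the gene body. Enzymes of the SET1 and MLL families, known from yeast, flies and mammals, deposit it in complexes with shared subunits. In mammals a broad domain of the mark that reaches well beyond the start is known from genes that define a cell's identity, so the flank and the start of a gene are of separate interest.

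The groups were as follows. Whole worms, sorted X1 cells and sorted Xins cells came from worms fed bacteria that expressed dsRNA against *set1* (6 days) or *mll* (9 days), and each had its own *unc* RNAi control of the same material. Untreated X1 cells were also compared with untreated Xins cells. X1 is the customary name of the cycling, irradiation-sensitive cells of this animal, and Xins that of the irradiation-insensitive cells. The labels give neither the strain and age of the worms nor the days of *unc* feeding, and how far each RNAi lowered its target was not analysed here. Each group had 2 H3K4me3 libraries, 28 in all, and no library served in more than 1 table. The labels do not say whether the 2 came from separate worms, so each p-value measures only the spread between these libraries. RNAi of *set1* and of *mll* differed in duration and in control libraries, so gene and duration cannot be told apart where their tables are set side by side.

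The values were normalized read counts, scaled by the authors within each table, and the enrichment over input, a ratio given once per group. In whole worms the median flanking region rested on 554.0 to 1079.0 reads per library. For sorted cells of RNAi worms this depth was 33.5 to 171.5 reads, where these could be recovered. In the untreated comparison it rested on 57.0 and 189.0 reads in X1, against 5.0 and 29.0 reads in Xins. The depth of the *mll* Xins table is unknown. Changes below are log2 differences of (normalized count + 1), RNAi over control or X1 over Xins, and a call is a limma adjusted p below 0.05 over all regions of a table. All regions had been listed by the authors for a difference between these same libraries, so a call shows that a difference exceeded the spread between libraries and is not independent evidence.

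Flanking regions took a very different share of the tables. They made up 300 of 554 regions of the *set1* X1 table (54.2%, 95% Clopper-Pearson interval 49.9 to 58.4) and 15 of 306 of the *mll* X1 table (4.90%, 2.77 to 7.96). In whole worms the share was 1209 of 8633 (14.0%, 13.3 to 14.8) after *set1* RNAi and 569 of 5169 (11.0%, 10.2 to 11.9) after *mll* RNAi. In Xins it was 18 of 106 (17.0%, 10.4 to 25.5) after *set1* RNAi and 1 of 12 (8.33%, 0.211 to 38.5) after *mll* RNAi. The comparison of X1 with Xins held 447 of 1378 (32.4%, 29.97 to 35.0). The intervals of the *set1* X1 and *mll* X1 shares did not overlap, and that of *set1* X1 overlapped with no other table. These intervals cover the counting of regions only, not the spread between libraries.

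**Figure D1:**
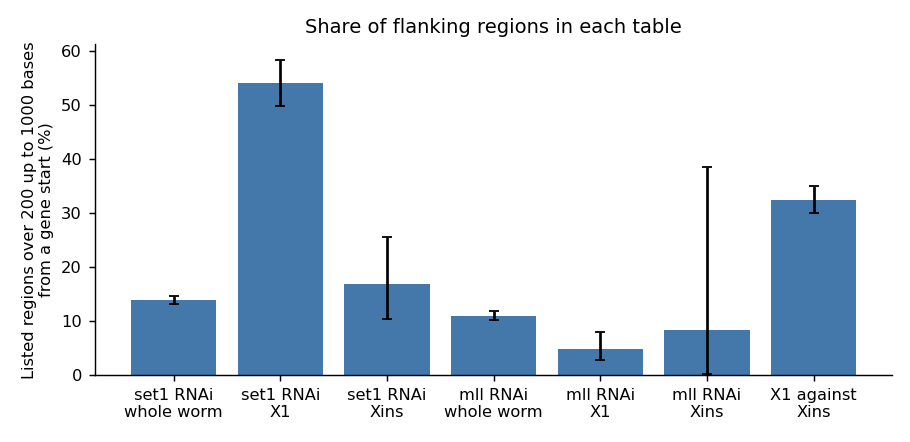
Share of the listed regions of each table that lay over 200 and up to 1000 bases from the nearest gene start (bars, percent; whiskers, 95% Clopper-Pearson intervals over regions). The *set1* X1 table stands highest at 54.2%, and the *mll* X1 table lowest at 4.90%.

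In X1 cells after *set1* RNAi, H3K4me3 was lower at all 300 flanking regions, and limma called all 300. The background in that table was 99.8% called lower, so the direction is not particular to the flanks. What sets the table apart is where its lowered regions lie. Only 131 of its 554 regions spanned a gene start (23.6%, 20.2 to 27.4), whereas 260 of 306 did in the *mll* X1 table (85.0%, 80.5 to 88.8). The median change at the flanks was -0.88 (quartiles -0.96 and -0.80), beside -0.96 (quartiles -1.14 and -0.82) at the regions that spanned a start. The median normalized count of the flanking regions was 60.1 and 60.6 in the *set1* RNAi libraries, against 107.8 and 112.1 in the *unc* RNAi libraries. Both RNAi libraries lay under both controls at every member, and the groups were apart at all 554 regions of the table. The enrichment over input fell with the counts, with a median of 4.54 after *set1* RNAi and 9.30 in the control, and it was higher after RNAi at 1 of the 300 members.

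The largest fall at a flank in this table was on scaffold v31.003756, 5201 to 6200, 222 bases from a gene start. Its normalized counts were 16.9 and 27.5 after *set1* RNAi, against 67.7 and 76.9 in the control. The groups did not overlap, and the change was -1.70 ± 0.21 (SE, n = 2 libraries a group, limma adjusted p 3.55e-14). The next was on scaffold v31.005020, 26101 to 27900, with 37.6 and 56.0 after RNAi, against 141.5 and 146.9 in the control. Its change was -1.63 ± 0.15 (SE, limma adjusted p 4.55e-23). The longest member of the table, 2400 bases on scaffold v31.002797 (9901 to 12300), had 124.3 and 111.3 after RNAi, against 255.9 and 256.4 in the control. The fall in this long region was -1.12 ± 0.10 (SE, limma adjusted p 3.34e-26).

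Within the flank the fall in *set1* X1 was slightly larger farther from the start. In bins that leave out their lower limit, the median change was -0.84 at 200 to 400 bases (115 regions), -0.90 at 400 to 600 bases (119), -0.92 at 600 to 800 bases (46) and -0.93 at 800 to 1000 bases (20). The enrichment in *set1* RNAi cells ran the same way, with medians of 4.82, 4.48, 4.25 and 4.15, while in the control it was 9.71, 8.91, 8.78 and 9.04. The quartiles of neighbouring bins overlapped, and the trend was not tested. Nearer the start the median change was -0.96 at regions that spanned it, -0.84 up to 100 bases and -0.82 at 100 to 200 bases. Beyond the flank it was -0.85 at 1000 to 2000 bases and -0.86 over 2000 bases. The fall thus did not grow steadily with distance over the whole table.

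The whole-worm table of *set1* RNAi listed far more flanking regions, with far smaller changes. Of the 1209 flanking regions, 1041 were lower after RNAi (86.1%, 84.0 to 88.0), beside 1782 of the 5768 regions that spanned a start (30.9%, 29.7 to 32.1). The median change was -0.11 (quartiles -0.19 and -0.055) at the flanks and 0.044 (quartiles -0.062 and 0.095) at the start-spanning regions. Limma called 603 flanking regions lower (49.9%), against a background of 25.8% of the table, and 50 higher (4.14%), against a background of 15.1%. Flanking regions were thus 603 of the 2230 regions called lower (27.0%, 25.2 to 28.9) and 50 of the 1300 called higher (3.85%, 2.87 to 5.04). Without the second-listed *unc* RNAi library the calls at flanks fell to 423, of which 401 were lower. Changes were small: 473 members changed by less than 0.1 on the log2 scale and 4 by 0.5 or more.

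The median normalized count of these members was 717.6 and 721.6 in the *set1* RNAi whole-worm libraries, against 770.5 and 780.6 in the controls. Both groups were apart, without overlap, at 1038 members (85.9%) and at 77.7% of all regions of the table. The enrichment over input did not follow the counts here. Its median at the flanks was 12.3 after *set1* RNAi, against 11.6 in the control, and it was higher after RNAi at 769 of 1209 members although 1041 had lower counts. Over the whole table it was higher after RNAi at 6845 of 8633 regions, with medians of 13.4 and 11.9. Higher enrichment after RNAi is thus not particular to the flanks. The enrichment also depends on the input libraries, whose part in this difference was not tested.

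The deepest fall among the whole-worm *set1* flanks was on scaffold v31.017035, 1201 to 2200, 990 bases from a gene start. It had 362.0 and 340.3 normalized counts after *set1* RNAi, against 553.5 and 524.0 in the control. Its change of -0.62 ± 0.06 (SE, limma adjusted p 5.42e-24) left no overlap between the groups. The largest rise, on scaffold v31.001384 (75001 to 76700, 504 bases from a gene start), had 584.2 and 598.1 after RNAi, against 422.0 and 485.8 in the control. That rise was 0.38 ± 0.05 (SE, limma adjusted p 9.93e-11). The longest member, 2500 bases on scaffold v31.000027 (67701 to 70200), had 1969.7 and 1937.0 after RNAi, against 2456.5 and 2403.7 in the control. It fell by 0.31 on the log2 scale (limma adjusted p 2.48e-14).

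The lean towards lower counts in whole worms was lost within the flank. After *set1* RNAi 93.8% of the 836 regions at 200 to 400 bases were lower (91.9 to 95.3), and 82.3% of the 237 at 400 to 600 bases (76.8 to 86.9). At 600 to 800 bases the share was 47.1% of 68 regions (34.8 to 59.6), and at 800 to 1000 bases 44.1% of 68 (32.1 to 56.7). Farther out, at 1000 to 2000 bases, it was 43.9% of 82 (33.0 to 55.3). Regions that lay up to 100 bases and 100 to 200 bases from a start, outside the chosen range, were lower in 92.2% and 93.4% of cases. Among listed regions, mostly lower ones thus ran from directly beside the gene starts to about 600 bases away. Of 830 overlapping pairs that held a flank in this table, 7 changed in the same direction. The shares by distance therefore cannot be separated from how regions were listed. Bins without overlapping regions were not compared. Of the 423 flanks that overlapped no region within 200 bases of a start, 322 were lower (76.1%).

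After *mll* RNAi in whole worms the counts at the flanks leaned the other way. Of the 569 flanking regions 179 were lower (31.5%, 27.7 to 35.4), beside 2507 of the 3896 start-spanning regions (64.4%, 62.8 to 65.8) and 132 of the 447 that lay within 200 bases of a start without covering it (29.5%). The median change was 0.043 (quartiles -0.042 and 0.090) at the flanks and -0.048 (quartiles -0.14 and 0.049) at the starts. Limma called 85 flanking regions higher (14.9%), against a background of 10.9%, and 66 lower (11.6%), against a background of 26.3%. The median of all regions of this table was 0.10 lower in the *mll* RNAi libraries (9.55 beside 9.65 in the control, log2 scale). With each library centred on that median, a setting chosen after the data were seen, limma called 386 flanking regions higher (67.8%) and 39 lower (6.85%), against 42.5% and 15.1% of all regions of the table under the same centring. Without the first-listed *unc* RNAi library 88 flanks were called (42 higher and 46 lower), and without the second-listed 74 (31 higher and 43 lower). Without the first-listed *mll* RNAi library 61 were higher and 62 lower, and without the second-listed 70 and 52. More rises than falls among the calls thus held in 1 of these 4 fits, while the share of members with lower counts stayed between 31.8% and 35.9% with any library left out.

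The median normalized count of the *mll* flanks was 665.2 and 659.2 after RNAi, against 653.5 and 650.4 in the controls. The enrichment over input leaned the other way from the counts, with a median of 10.2 after RNAi, against 10.5 in the control. It was higher after RNAi at 239 of 569 members, although 390 had higher counts. Over the whole table it was higher after RNAi at 1559 of 5169 regions, with medians of 10.4 after RNAi and 11.1 in the control. Lower enrichment after RNAi is thus not particular to the flanks. By distance the shares of lower regions were 20.4% of 343 at 200 to 400 bases (16.3 to 25.1) and 38.7% of 142 at 400 to 600 bases (30.7 to 47.3). They were 63.0% of 54 at 600 to 800 bases (48.7 to 75.7) and 66.7% of 30 at 800 to 1000 bases (47.2 to 82.7). Up to 600 bases the whole-worm tables of *set1* and *mll* thus lay on opposite sides of 50%, and from 600 to 1000 bases the intervals of both tables spanned it.

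**Figure D2:**
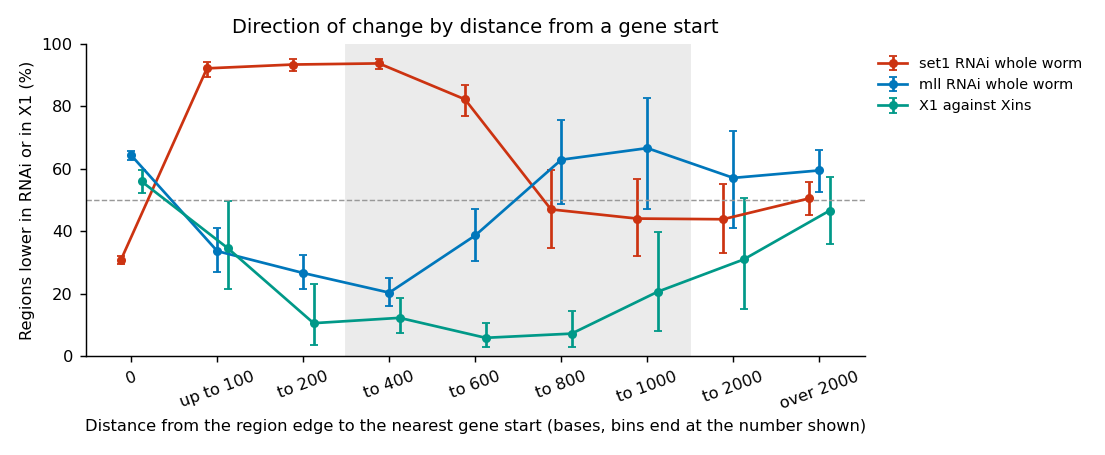
Percent of listed regions lower after RNAi (or lower in X1), by distance in bases from the nearest gene start; a distance of 0 marks regions that span a start, shading marks the flanking range, and whiskers are 95% Clopper-Pearson intervals over regions. From 200 to 400 bases 93.8% were lower after *set1* RNAi, 20.4% after *mll* RNAi and 12.3% in X1. Overlapping regions within the whole-worm tables seldom changed in the same direction, so the shares there cannot be separated from how regions were listed.

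The largest single changes at the *mll* flanks in whole worms were falls. On scaffold v31.002898, 43501 to 44600, 838 bases from a gene start, the counts were 183.5 and 156.0 after *mll* RNAi, against 468.0 and 466.1 in the control. That change was -1.46 ± 0.08 (SE, limma adjusted p 4.13e-70). The region at 112401 to 113600 on scaffold v31.000603 had 223.0 and 218.2 after RNAi, against 540.2 and 540.3 in the control, a change of -1.29 ± 0.07 (SE, limma adjusted p 9.10e-70). Its enrichment over input was 3.60 after RNAi, against 8.84 in the control. The 4 largest falls lay 587 to 838 bases from a start. The largest rise was on scaffold v31.042760, 301 to 1400, with 333.2 and 315.5 after RNAi, against 225.5 and 208.4 in the control (0.58 ± 0.08, SE, limma adjusted p 5.12e-11).

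In X1 cells after *mll* RNAi only 15 regions flanked a start. Of these, 11 were called lower (background 92.2%) and 4 higher (background 6.54%), and no member failed the test. The enrichment over input was higher after RNAi at 1 of the 15, and it was lower at 3 of the 4 members whose counts were higher. All 8 members that lay more than 600 bases from a start were lower, while the 7 at 200 to 600 bases held 3 that were lower and the 4 that were higher. With so few members these counts are descriptions. The deepest fall in X1 was at a region listed at the same position in whole worms: 1601 to 3300 on scaffold v31.014145, 767 bases from the start of SMED30013657, an identifier that the tables do not pair with a name. In X1 it had 29.4 and 27.3 normalized counts after *mll* RNAi, against 86.4 and 66.2 in the control, a change of -1.39 ± 0.19 (SE, limma adjusted p 3.63e-05). In whole worms it had 201.8 and 222.6 after RNAi, against 430.1 and 482.1 in the control, a change of -1.10 ± 0.08 (SE, limma adjusted p 2.12e-45). The largest rise in X1 was at 45801 to 46800 on scaffold v31.000959, with 164.9 and 159.3 after RNAi, against 124.6 and 112.0 in the control (0.45 ± 0.09, SE, limma adjusted p 4.77e-04).

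The Xins tables were short. After *set1* RNAi all 18 flanking regions were called lower, as was 100.0% of that table, with a median change of -0.84. Their median counts were 42.5 and 34.6 after RNAi, against 67.5 and 75.8 in the control. All 18 stayed lower with any library left out. The number called in such fits cannot show whether the calls rest on a control library. With a control left out, the spread is taken from the *set1* RNAi libraries alone. The largest fall, at 6601 to 7600 on scaffold v31.008091, had 36.2 and 21.3 after RNAi, against 64.5 and 84.4 in the control (-1.38 ± 0.25, SE, limma adjusted p 9.75e-06). After *mll* RNAi the single flanking member, at 33301 to 34300 on scaffold v31.001774, had 30.7 and 31.2 normalized counts, against 59.1 and 55.9 in the control. It fell by 0.87 on the log2 scale (limma adjusted p 0.00182, background 100.0%) and stayed lower with any library left out. Calls without a control library cannot show here either whether the result rests on it, since the spread is then taken from the *mll* RNAi libraries alone.

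In untreated cells the question was where the mark differs between cycling and irradiation-insensitive cells. The ratio was read as X1 over Xins because the table names X1 before Xins. Its header gives only treatment and control, and the labels do not state which is which. If Xins were the treatment, every direction given here for X1 against Xins would reverse. The table ends within its last row, at scaffold number 1565, so its values hold for the scaffolds read. H3K4me3 was higher in X1 at 405 of 447 flanking regions (90.6%, 87.5 to 93.1), beside 315 of 716 start-spanning regions (44.0%, 40.3 to 47.7). Regions within 200 bases of a start that did not cover it were also mostly higher in X1, at 74 of 96 (77.1%, 67.4 to 85.0). Limma called 362 flanks higher in X1 (81.0%), against a background of 56.2%, and 37 lower (8.28%), against a background of 32.1%. The median change at the flanks was 1.12 (quartiles 0.87 and 1.52). The medians of the normalized counts were 52.3 and 52.0 in X1, against 22.8 and 24.9 in Xins, and the groups did not overlap at any of the 447 members, nor at 99.6% of all regions of the table.

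The direction of these changes did not depend on a single library. The share of flanks lower in X1 was 9.40% with any library left out, as with all libraries. The number called in such fits cannot show whether the calls depend on an X1 library. With an X1 library left out, the spread is taken from the Xins libraries alone, which held far fewer reads. The listed regions as a whole had a median 0.65 higher in X1 on the log2 scale (5.43, against 4.78 in Xins). With each library centred on that median, 394 members were higher in X1 and 53 lower, and limma called 76 higher (17.0%) and 42 lower (9.40%), against 21.3% and 37.0% of all regions of the table under the same centring. The direction of most members thus held under this scaling and the number called did not.

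Enrichment over input at these flanks had a median of 16.3 in X1 and 7.22 in Xins, and was higher in X1 at 374 of 447 members. It fell with distance from the start in both populations. In X1 it was 19.4 at 200 to 400 bases and 10.3 at 800 to 1000 bases, and in Xins 8.90 and 3.21 over the same bins. The median log2 change rose across the same range, with 0.99, 1.13, 1.38 and 1.44 in the 4 bins of the flank. The last bin held 29 regions, and the trend was not tested.

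A member with reads in every library shows the size of this difference. On scaffold v31.000926, 21701 to 24400, 632 bases from the start of SMED30006991, the counts were 133.8 and 136.7 in X1, against 22.2 and 24.9 in Xins. These stand for 144.0 and 492.0 reads in X1 and 5.0 and 29.0 reads in Xins, and the change was 2.48 ± 0.15 (SE, limma adjusted p 0.00306). Among called members with a mean count of at least 20, no overlap and no group at 0, it ranked below 2 others by change, on scaffolds v31.000769 and v31.000744, whose first-listed Xins library held 0 and 1 reads. The largest fall in X1 among those with a mean count of 20 or more was at 20701 to 23400 on scaffold v31.000958. It had 16.7 and 16.7 in X1, against 79.8 and 70.4 in Xins (-2.10 ± 0.19, SE, limma adjusted p 0.00383). The longest member of any table, 3600 bases on scaffold v31.000021 (215901 to 219500), had 203.7 and 224.1 in X1, against 114.0 and 93.5 in Xins.

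At 9 members of this table both libraries of a group were at 0, so no fold is given. At 6 of them the zeros were in Xins, and the X1 libraries held 7.43 to 16.1 normalized counts. At the other 3 the zeros were in X1, and the Xins libraries held 8.58 to 18.2. In the first-listed Xins library these few counts stand for 3.0 or 4.0 reads.

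The level of the flanks relative to the starts was then compared library by library, as the median log2(count + 1) of flanking regions minus that of regions within 200 bases of a start. In X1 against Xins the difference was 0.43 and 0.43 in the X1 libraries, against -0.43 and -0.18 in the Xins libraries. In *mll* whole worms it was -0.24 and -0.25 after RNAi, against -0.37 and -0.37 in the control. In *set1* whole worms it was -0.31 and -0.32 after RNAi, against -0.27 and -0.27 in the control. The groups did not overlap in any of the 3.

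In *set1* X1 cells the difference was -0.052 and -0.017 after RNAi, against -0.12 and -0.099 in the control, again without overlap. In *mll* X1 it was 0.26 and 0.27 after RNAi, against 0.26 and 0.23 in the control. In *set1* Xins the groups overlapped, with -0.16 and -0.19 after RNAi, against -0.21 and -0.045 in the control. The exact two-sided permutation test of 2 against 2 libraries gave p = 1.0 for *set1* Xins and, for every other table, p = 0.33, the smallest p this design allows.

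**Figure D3:**
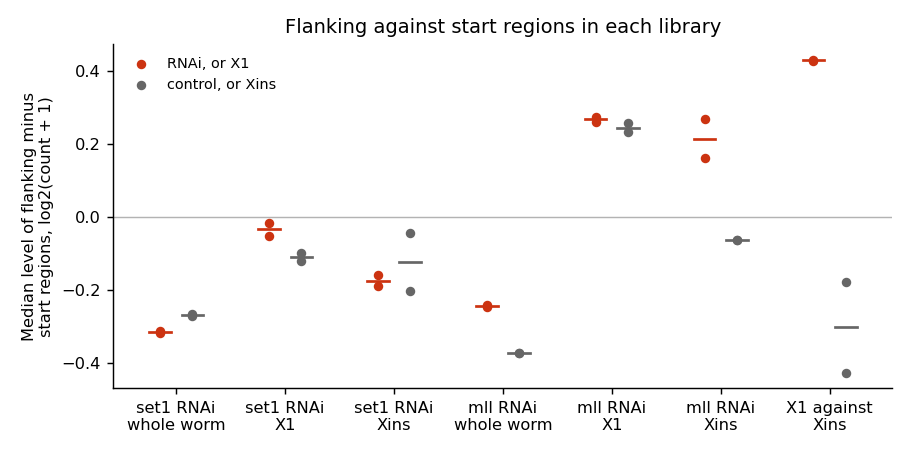
Median log2(normalized count + 1) of flanking regions minus that of regions within 200 bases of a gene start, for each library (points) and as the mean of a group (lines), with RNAi or X1 libraries left of control or Xins libraries. The X1 libraries sit at 0.43 and the Xins libraries at -0.43 and -0.18; the *mll* Xins table has 1 flanking region.

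Many flanking members had a start-spanning region of the same gene in their own table. This was so for 808 of 1209 members after *set1* RNAi in whole worms (66.8%) and for 225 of 569 after *mll* RNAi (39.5%). After *set1* RNAi 751 of 821 such pairs had a lower flank and a higher start, and 51 had the reverse. The median change in these pairs was -0.11 at the flank and 0.065 at the start. After *mll* RNAi 180 of 230 pairs had a higher flank and a lower start, and 38 the reverse, with medians of 0.045 at the flank and -0.037 at the start. Both partners passed limma in 151 *set1* pairs, of which 143 had the lower flank with the higher start, and in 7 *mll* pairs.

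Overlapping regions of any kind within a table seldom changed in the same direction, so opposite directions within a pair are not particular to flanks and starts. They are a feature of how regions were listed in these tables, and are not read here as a result. Of 2780 pairs of overlapping regions in the *set1* whole-worm table, 39 changed in the same direction, and 5 of 533 did in the *mll* table. Most pairs of flank and start overlapped (760 of 821 and 208 of 230). The lower partner was the flank in most *set1* pairs and the start in most *mll* pairs. Among the flanking members that overlapped no region within 200 bases of a start, 322 of 423 were lower after *set1* RNAi (76.1%) and 136 of 352 after *mll* RNAi (38.6%), a subset chosen after the data were seen.

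**Figure D4:**
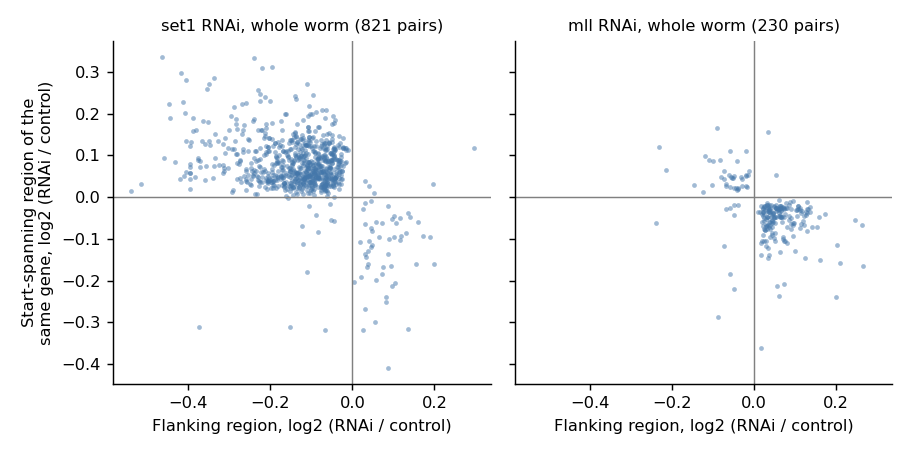
Change at a flanking region (horizontal) and at the start-spanning region of the same gene (vertical), both log2 of RNAi over control, in whole worms; each point is a pair of regions. After *set1* RNAi 751 of 821 pairs lie at upper left, and after *mll* RNAi 180 of 230 lie at lower right. Most pairs overlap, and overlapping regions of any kind in these tables seldom changed in the same direction.

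In X1 the *set1* flanks could be set beside the starts of their genes in whole worms, which are separate libraries. For 241 of the 300 members (80.3%) the whole-worm *set1* table listed a region across the start of the same gene, in 301 pairs. That start was lower in 104 pairs and higher in 197, with a median change of 0.036, while the X1 flank was lower in all. Of all 5768 start-spanning regions of the whole-worm table, 3986 were higher (69.1%), with a median change of 0.044. The directions at these starts were thus near those of the table, and every *set1* X1 flank was lower in any case. In 143 pairs both partners were called, 88 with a lower start and 55 with a higher one.

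Some flanking members of different tables covered the same bases, but 1497 of the 1979 loci held flanking members of 1 table only. Between *set1* whole worms and *set1* X1, 82 of 1209 members (6.78%) met 81 of 300 (27.0%). The mark was lower in both tables in 81 of 82 overlaps, with median changes of -0.23 in whole worms and -0.85 in X1. Since every *set1* X1 flank was lower, the count rests on the whole-worm side. Between *set1* X1 and *set1* Xins, 9 of 300 members met 9 of 18.

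Between *set1* and *mll* in whole worms 239 of 1209 members (19.8%) met 228 of 569 (40.1%). Of the 243 overlaps, 120 were lower after *set1* RNAi and higher after *mll* RNAi, 65 were lower in both, 47 higher after *set1* and lower after *mll* RNAi, and 11 higher in both. Where both tables called the member, 26 of 47 overlaps had the fall after *set1* and the rise after *mll* RNAi. Among all whole-worm flanks 86.1% were lower after *set1* RNAi and 68.5% higher after *mll* RNAi, so the prevailing directions already favour this pairing. Whether any of these counts differs from what those shares give was not tested. In X1 cells 1 member was common to the *set1* and *mll* tables.

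Overlaps with the untreated table were counted on scaffolds numbered up to 2142, the highest number in its 2 runs of scaffolds. That limit can take in scaffolds that the cut table did not reach, so the shares of RNAi flanks met are approximate. Of the *set1* X1 flanks 59 of 151 (39.1%) met 59 of 447 flanks of X1 against Xins (13.2%). All 59 were lower in X1 after *set1* RNAi and higher in X1 than in Xins, although 90.6% of all flanks in the untreated table were higher in X1. Of the *set1* whole-worm flanks 123 of 646 (19.0%) met the untreated table, and 118 of the 123 overlaps paired a fall after *set1* RNAi with a higher level in X1. Both members were called in 93 of these overlaps, and 91 had this pairing. Among all *set1* whole-worm flanks 86.1% were lower, so the directions that prevail in each table already favour it. Whether the count exceeds what they give was not tested. Of the *mll* whole-worm flanks 65 of 311 (20.9%) met the untreated table. In 50 of these overlaps the mark was higher after *mll* RNAi and higher in X1, beside 68.5% of all *mll* whole-worm flanks higher after RNAi. Both members were called in only 14 of the overlaps. Of those, 10 were higher in both, 3 lower after *mll* RNAi and higher in X1, and 1 the reverse.

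A flanking region recurred in 3 or more tables at 74 loci, and in 4 tables at 7. At 72 of the 74 a *set1* member was lower. An X1 and Xins member was present at 51, higher in X1 at 49 of them. An *mll* whole-worm member was higher at 44 and lower at 17. These counts include members that limma did not call. They follow the directions that prevail in each table, and how many such loci would be met without any link between tables was not tested.

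The locus on scaffold v31.000204 near SMED30028341 shows the pattern. In whole worms the flank at 68301 to 69300 had 589.6 and 535.7 normalized counts after *set1* RNAi, against 757.4 and 773.5 in the control (-0.45 ± 0.05, SE, limma adjusted p 4.18e-16). In X1 the flank at 68401 to 69400 had 50.4 and 52.0 after *set1* RNAi, against 89.8 and 103.5 in the control (-0.90 ± 0.17, SE, limma adjusted p 2.45e-07). Both tables showed the fall without overlap between groups. After *mll* RNAi in whole worms the flank at 68101 to 69100 had 1048.4 and 1051.4, against 998.0 and 991.3 in the control, a difference of 0.08 that did not pass (limma adjusted p 0.117). In untreated cells the flank at 68201 to 69800 had 106.5 and 109.6 in X1, against 45.6 and 54.9 in Xins (1.09 ± 0.15, SE, limma adjusted p 0.00693).

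A second such locus, on scaffold v31.000866, was in the *set1* tables of all 3 materials. The whole-worm change was -0.31 ± 0.04, the X1 change -0.95 ± 0.13 and the Xins change -0.77 ± 0.18 (SE, limma adjusted p 9.51e-14, 2.30e-12 and 1.13e-04). In Xins its counts were 59.7 and 78.5 after RNAi, against 118.2 and 117.2 in the control. In untreated cells its flank was higher in X1 by counts, with 105.9 and 98.9 in X1, against 66.5 and 59.2 in Xins. By enrichment over input it was lower, at 27.6 in X1 and 65.8 in Xins.

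**Figure D5:**
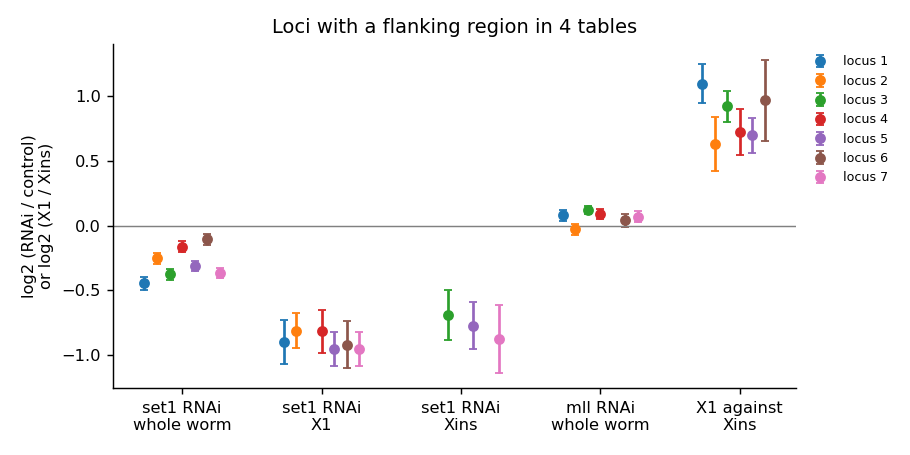
Log2 change (RNAi over control, or X1 over Xins; points, with the limma standard error) at the 7 loci where a flanking region was listed in 4 tables, 1 colour a locus. All *set1* values lie under 0, all X1 over Xins values lie above 0, and of the 6 *mll* whole-worm values only 1 passed the test.

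Flanking regions were short. Their median length was 1000 bases in both whole-worm tables and in *set1* Xins, 1200 in *set1* X1, and 1300 in *mll* X1 and in X1 against Xins. Regions across a start had medians of 1200 to 1800 bases over these tables. The shortest length in the tables is 1000 bases, the size of most flanks in whole worms, with 619 of 1209 members (51.2%) after *set1* RNAi and 348 of 569 (61.2%) after *mll* RNAi. In *set1* X1 102 of 300 members (34.0%) had this length.

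The limits of the rule cut through a continuous range of distances. At 200 bases, just outside, a region of the *set1* whole-worm table on scaffold v31.000035 (163701 to 164700) had 513.1 and 517.2 counts after RNAi, against 559.0 and 553.2 in the control. Just inside, 1 base farther out, a region on scaffold v31.000438 (105801 to 106800) had 681.2 and 661.3 after RNAi, against 708.2 and 697.9 in the control. At the outer limit, 998 bases, a region on scaffold v31.025923 (1001 to 2000) had 446.3 and 414.0 after *set1* RNAi, against 479.5 and 504.5 in the control. The first region beyond it, at 1007 bases on scaffold v31.003536 (51601 to 52600), had 512.5 and 496.4 after *mll* RNAi, against 503.1 and 466.1 in the control. Of the members, 889 of 1209 in *set1* whole worms and 224 of 300 in *set1* X1 were listed with a single gene, so that the others lay near several annotated genes.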

How the data were processed

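The sources used here list 58 samples of H3K4me3 ChIP-seq and input. The authors deposited diffReps comparisons: a normalized count of each library, the group means of these counts (a signal scaled between libraries) and the enrichment over input as a ratio, 1 value a group. The tools named in the submitters' processing notes are CASAVA 1.8.2, Bowtie and MACS2. Genome build and diffReps settings: not given in the sources used here. The deposited log2 fold changes, p-values and directions of the authors' own comparisons were not used.

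Each region was counted once, with its smallest distance to a gene start. Changes were fitted on log2(normalized count + 1) with limma 3.58.1 in R 4.3.3 (variance trend except in *mll* Xins), with Benjamini-Hochberg adjustment over each whole table. Tables were normalized separately and were fitted separately. The fit was tested on simulated data, drawn with 1 spread for every region and library of a table. Unequal spread between groups, as their depths would give, was thus not imitated. Up to 7.14% of the calls were false, in *mll* X1 with changes of 0.3. For *set1* whole worms (8633 regions) the fit recovered 100.0% of 200 changes of 0.3 (log2). Among the 554 of *set1* X1 it recovered 35.9% of 184 changes of 0.3 and 100.0% of 184 changes of 1, and among the 1378 of X1 against Xins 85.5% of 200 changes of 1. It recovered 0.0% of changes of 0.3 in X1 against Xins and in *set1* and *mll* Xins. Reads were recovered as whole multiples of a step within runs of scaffolds (tolerance 0.0075), and served only to describe depth.

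The members and the lists were chosen with earlier results of these data known. Named regions were, per table and direction, up to 4 with the largest change among those with an adjusted p below 0.05, a mean count of at least 20, no overlap between groups and no group at 0; the first ones are described. Loci in several tables, regions at the limits of the rule and the longest members were added by rule. The alternatives were other pseudocounts, filters, distance limits and variance trends, and leaving out each library.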

Additional observations from a re-analysis of the deposited data

Results flagged for a closer look

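The level of flanking regions relative to start regions moved in opposite directions in the *set1* tables of whole worms and X1. In whole worms the RNAi libraries lay below both controls, with a mean difference of -0.046 on the log2 scale, and in X1 both RNAi libraries lay above both controls, with a mean difference of 0.076. The difference between the tables was not tested, and each table lists its own regions. Groups of 2 libraries are too small for a test of single outlying libraries.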

How the results depend on the processing

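With 1 library left out at a time, the number of flanking regions called ranged from 423 to 509 in *set1* whole worms (653 with all), 300 to 300 in *set1* X1, 0 to 18 in *set1* Xins, 74 to 123 in *mll* whole worms (151 with all), 14 to 15 in *mll* X1, 0 to 1 in *mll* Xins and 6 to 440 in X1 against Xins (399 with all). The percent lower in *mll* whole worms ranged from 31.8% to 35.9%. A lone library is assumed to vary like the other group. At 200 to 2000 bases 83.4% of *set1* whole-worm regions were lower. At 200 to 500 bases 93.0% were lower in *set1* whole worms, 21.4% in *mll* whole worms and 33.3% of 6 regions in *mll* X1, which turned that table's direction. Calls at 200 to 500 bases were 185 in *set1* X1, 93 in *mll* whole worms, 6 in *mll* X1 and 211 in X1 against Xins, where fewer regions enter. With a single listed gene 250 were called in X1 against Xins and 6.76% were lower, and 3.22% were lower among members whose mean count reached 20. Alternatives added after seeing the data gave these values. Without overlap with a start region 264 were called in *set1* whole worms and 76.1% were lower, and 38.6% were lower in *mll* whole worms. Centring gave 425 calls and 13.2% lower in *mll* whole worms, and 118 calls in X1 against Xins. Averaging over regions in place of the median turned the level difference of *set1* Xins to 0.0013, against -0.050. Of 202 recomputed values, 174 were close to the value reported: a count of calls within 1.5 times it, a percent lower within its interval, or a level difference of the same sign. Counts within that range can still hold lost calls, and the split of *mll* whole-worm calls turned to 61 higher and 62 lower without the first-listed *mll* RNAi library. No paired analysis was possible because the columns carry no replicate numbers. The depth of the *mll* Xins libraries is unknown.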
